A study of Homo sapiens with 14 samples.

Results

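The Frizzled family of Wnt receptors was examined in HEK293T cells that lacked SETD2 and in wild type HEK293T cells. Its 10 members, FZD1 to FZD10, were taken as 10 anchor transcripts and as every row whose locus on the genome build hg19 covers a fixed point within each gene. This gave 64 transcripts at 10 loci, out of 204092 transcripts at 35671 loci in all. The family was chosen by the higher FPKM of its member FZD10 in the knockout in these same data, so every value of knockout against wild type below is a description and supports nothing further.

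HEK293T is an established line from human embryonic kidney in which the SV40 large T antigen is expressed. SETD2 is a histone methyltransferase that trimethylates H3 at lysine 36 over the bodies of active genes. The RNA samples were 3 libraries of SETD2 Knockout HEK293T cells (SETD2 KO) and 3 libraries of wildtype HEK293T cells (WT), and both groups carry the same large T antigen. The labels do not say how the knockout was made or whether the line comes from a single clone, nor whether the libraries come from separate cultures. Another 8 samples, from ChIP, were not analysed here.

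Frizzled proteins are receptors that span the membrane several times and bind secreted Wnt ligands through a cysteine-rich domain outside the cell. Together with the co-receptors LRP5 and LRP6 they act through Dishevelled to keep beta-catenin from being degraded, and with other partners they steer cell polarity and movement. By sequence the family falls into FZD1, FZD2 and FZD7, then FZD5 and FZD8, then FZD3 and FZD6, and then FZD4, FZD9 and FZD10. HEK293T cells respond to added Wnt ligand and are widely used for reporters of this pathway.

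The deposited values are FPKM, which scale a fragment count by transcript length and by library size, with 1 value per transcript and group. They are per length, so levels of different receptors can be set side by side. No value of a single library was available, so the spread between libraries and the depth of each are unknown. Each group appears in a table of tests and in a tracking table that adds a lower and an upper bound, whose level is not given. The tables differ for the knockout: its tracking value was 0.652 to 1.65 times its test-table value between the 5th and 95th percentiles, against 0.974 to 0.979 times for WT. Where no table is named a value is from the test table, and all intervals come from the tracking table. In bulk RNA a change in the number of cells that express a receptor and a change in its RNA per cell cannot be told apart. The deposited rows carry transcript IDs without gene symbols, so the level of SETD2 and markers of the cell line were not analysed here, and the Frizzled names rest on position.

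FZD10 and FZD7 were the members that passed the authors' test, both higher in SETD2 KO. Of the 32 tested transcripts at the Frizzled loci in the authors' deposited table, 2 had a q-value of at most 0.05. Over all 85852 tested transcripts the share was 0.255%, with 0.0629% passing as higher and 0.192% as lower in SETD2 KO. A deposited p of at most 0.05 before adjustment was given for 5 of the 32, which belong to FZD10, FZD7, FZD1 and FZD8. The same share over all tested transcripts was 2.39%. FZD10 and FZD7 both had p = 5e-05 and q = 0.0220 in the authors' deposited table. The deposited p-values run in steps of 5e-05, and 0.0220 is the smallest q-value among the calls. Transcripts that share this q-value, here and below, are therefore not ranked by it.

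**Figure D1:**
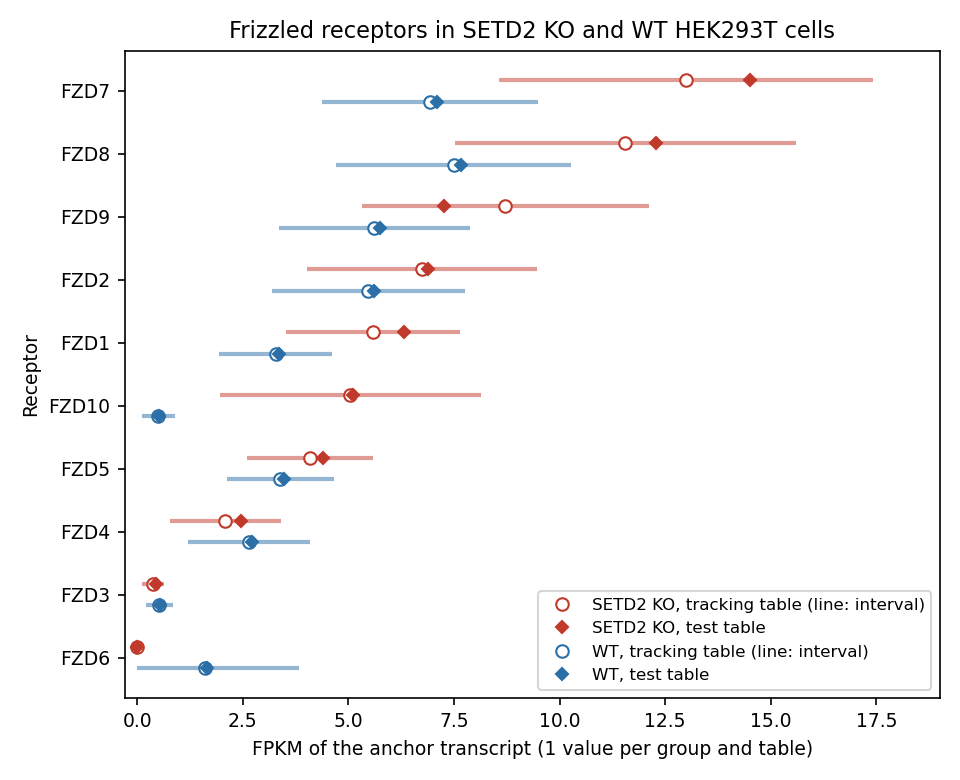
FPKM of the anchor transcript of each Frizzled receptor (horizontal axis), with SETD2 KO above WT in each pair. Diamonds are test-table values, circles are tracking-table values and lines are the authors' intervals; the intervals lie apart for FZD10 alone, at 1.95 to 8.15 FPKM in SETD2 KO and 0.108 to 0.896 FPKM in WT.

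FZD10 was the lowest of the 10 anchors in WT and stood 6th in SETD2 KO. Its gene is little used in most adult tissues and is known as a surface antigen of synovial sarcoma. The locus lies on chromosome 12 from 130647004 to 130650285 (hg19). Its anchor ENST00000229030 stood at 5.10 FPKM in SETD2 KO and at 0.514 FPKM in WT, a 9.91-fold higher value (q = 0.0220 in the authors' deposited table). In the tracking table it had 5.05 FPKM in SETD2 KO, with an interval of 1.95 to 8.15 FPKM, and 0.502 FPKM in WT, with an interval of 0.108 to 0.896 FPKM. The intervals did not overlap, which held for 1 of the 10 anchors. Over all tested transcripts, intervals lay apart for 0.632%, and with the higher value in SETD2 KO for 0.217%. Among tested transcripts that reached 1 FPKM in a group, that share was 0.289%.

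A second transcript of the FZD10 locus, ENST00000539839, stood at 1.96 FPKM in SETD2 KO and 0.514 FPKM in WT. It was 3.81-fold higher but did not pass (p = 0.0076, q = 0.896 in the authors' deposited table). Its intervals of 0 to 4.41 FPKM in SETD2 KO and 0.108 to 0.895 FPKM in WT overlapped. The anchor held 72.3% of the locus sum in SETD2 KO and 50.0% in WT. In WT the values and intervals of both transcripts were almost equal, so the division of signal between them there is uncertain. The ratio of the anchor, and any rank by that ratio below, rests on this division, while the locus sum does not. Summed over both transcripts, FZD10 stood at 7.06 FPKM in SETD2 KO and 1.03 FPKM in WT, a 6.86-fold difference. Both transcripts were higher in the knockout, and the sum in the tracking table differed by the same 6.86-fold.

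Of the 54 transcripts that passed as higher in SETD2 KO, 35 were above 0 in both groups. The others stood at 0 in WT, so they have no finite ratio and were not ranked. Among the 35, the FZD10 anchor had the 4th largest ratio. By the difference in FPKM, 4.58 FPKM, it was 18th. Its place is near the top of these 35 calls by ratio and in the middle by the FPKM difference. FZD10 was chosen by this same contrast, so the place is a description.

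The locus that lies next to FZD10 was also higher in SETD2 KO by its sum. It runs from 130634894 to 130646801 on chromosome 12 (hg19), holds 4 transcripts and ends 202 bases before the FZD10 locus starts. RefSeq's annotation of GRCh38.p14 lists FZD10-AS1, a long non-coding RNA, as the gene before FZD10; the files do not name these transcripts, and the builds differ. The sum was 5.97 FPKM in SETD2 KO and 1.28 FPKM in WT, a 4.65-fold difference. In the tracking table the sums were 5.31 FPKM in SETD2 KO and 1.25 FPKM in WT. No transcript of this locus passed the authors' test, and the intervals of all 4 overlapped. The highest of them, ENST00000537095, had 3.38 FPKM in SETD2 KO and 0.333 FPKM in WT (p = 0.194 in the authors' deposited table). ENST00000505807 had 1.29 FPKM in SETD2 KO and 0.308 FPKM in WT (p = 0.005, q = 0.695 in the authors' deposited table). ENST00000509760 ran the other way, at 0.0849 FPKM in SETD2 KO and 0.229 FPKM in WT, and was not tested.

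Within 1 Mb of FZD10 there were 13 other loci, of which 3 reached 1 FPKM in a group. Here and below, within 1 Mb means that the locus starts within 1 Mb of the fixed point of the gene. Loci that start farther away but reach into this range were not counted. The adjacent locus was one of these. The locus starting 627.1 kb beyond the start of FZD10 had 18.9 FPKM in SETD2 KO and 16.05 FPKM in WT. The one starting 709.4 kb beyond it had 910.8 FPKM in SETD2 KO and 759.6 FPKM in WT. No transcript other than the FZD10 anchor passed the authors' test within 1 Mb.

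**Figure D2:**
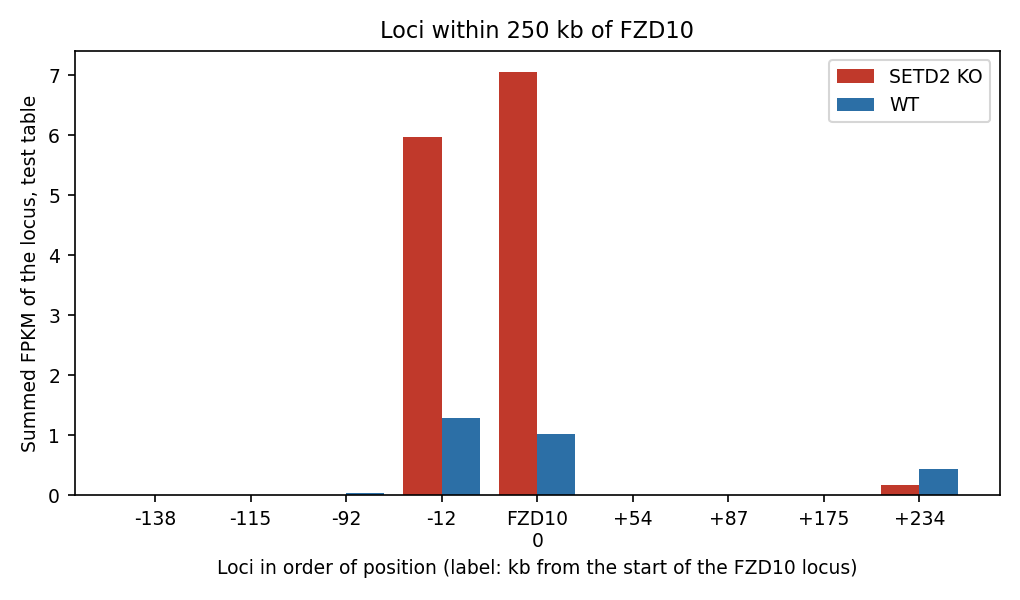
Summed FPKM per locus (vertical axis, test table) for the loci that start within 250 kb of FZD10 in order of position, with SETD2 KO left of WT. FZD10 (7.06 FPKM in SETD2 KO and 1.03 FPKM in WT) and the locus ending 202 bases before it (5.97 FPKM in SETD2 KO and 1.28 FPKM in WT) carry nearly all the signal drawn; the other loci lie below 0.5 FPKM in both groups.

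FZD7, FZD1 and FZD2 form a closely related branch, and their anchors were all higher in SETD2 KO by different amounts. FZD7 is a main Wnt receptor of human pluripotent stem cells. It lies on chromosome 2 from 202899310 to 202903160 (hg19) with a single transcript, ENST00000286201. FZD7 stood at 14.5 FPKM in SETD2 KO and 7.11 FPKM in WT, a 2.04-fold rise (q = 0.0220 in the authors' deposited table). Its intervals, 8.56 to 17.4 FPKM in SETD2 KO and 4.37 to 9.49 FPKM in WT, overlapped. They come from the tracking table, while the call comes from the test table. FZD7 had the 25th largest ratio and the 13th largest difference in FPKM (7.40 FPKM) among the same 35 calls. In the tracking table its ratio was 1.87.

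FZD1, which signals through beta-catenin, lies on chromosome 7 from 90893783 to 90898123 (hg19). Its transcript ENST00000287934 stood at 6.32 FPKM in SETD2 KO and 3.36 FPKM in WT, a 1.88-fold difference that did not pass (p = 0.0005, q = 0.136 in the authors' deposited table). The intervals of 3.52 to 7.63 FPKM in SETD2 KO and 1.95 to 4.61 FPKM in WT overlapped. FZD2, a receptor for WNT5A, lies on chromosome 17 from 42634925 to 42636907 (hg19). FZD2 had 6.88 FPKM in SETD2 KO and 5.60 FPKM in WT, with intervals that overlapped (p = 0.258, q = 0.991 in the authors' deposited table). The 1.23-fold difference of FZD2 was the smallest of the branch.

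FZD8 and FZD5 form the next branch. FZD8, whose cysteine-rich domain is used in soluble Wnt traps, lies on chromosome 10 from 35927177 to 35930362 (hg19). Its anchor ENST00000374694 stood at 12.3 FPKM in SETD2 KO and 7.68 FPKM in WT, a 1.60-fold difference that did not pass (p = 0.0035, q = 0.552 in the authors' deposited table). Its intervals were 7.53 to 15.6 FPKM in SETD2 KO and 4.70 to 10.3 FPKM in WT, and overlapped. By anchors, FZD8 was the highest receptor in WT and the second in SETD2 KO, behind FZD7.

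Another row of the FZD8 locus, ENST00000579659, was listed at 43.3 FPKM in SETD2 KO and at 0 in WT. Its knockout interval in the tracking table ran from 0 to 474.9 FPKM, and it did not pass (p = 0.162 in the authors' deposited table). It made the FZD8 locus sum 55.6 FPKM in SETD2 KO and 7.68 FPKM in WT, so that sum does not describe the receptor. FZD5, which in the mouse is needed for the vessels of the yolk sac, lies on chromosome 2 from 208627310 to 208634287 (hg19). FZD5 had 4.41 FPKM in SETD2 KO and 3.47 FPKM in WT (p = 0.137 in the authors' deposited table). Its intervals, 2.61 to 5.59 FPKM in SETD2 KO and 2.12 to 4.65 FPKM in WT, overlapped.

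FZD9 and FZD4 are the relatives of FZD10, and neither passed the test. FZD9, a gene within the Williams syndrome region of chromosome 7, lies from 72848109 to 72850450 (hg19). FZD9 had 7.27 FPKM in SETD2 KO and 5.75 FPKM in WT, a 1.26-fold difference (p = 0.184 in the authors' deposited table). Its knockout value is the one that depends most on the table: the tracking table gave 8.72 FPKM in SETD2 KO and 5.61 FPKM in WT, a 1.55-fold difference, with intervals of 5.32 to 12.1 FPKM in SETD2 KO and 3.36 to 7.87 FPKM in WT that overlapped.

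FZD4, the receptor for norrin in the vessels of the retina, had 2.45 FPKM in SETD2 KO and 2.71 FPKM in WT at its anchor ENST00000531380. Its intervals of 0.774 to 3.40 FPKM in SETD2 KO and 1.196 to 4.10 FPKM in WT overlapped. The FZD4 locus of the files, on chromosome 11 from 86502101 to 86666433 (hg19), spans 164333 bases and 18 transcripts, while the RefSeq gene spans 9717 bases. Transcripts of other genes can therefore lie in it, and the files do not say which. The highest row there, ENST00000441050, had 14.9 FPKM in SETD2 KO and 14.8 FPKM in WT. The locus sum was 31.8 FPKM in SETD2 KO and 31.6 FPKM in WT. The other named rows of the locus went in both directions, all with overlapping intervals and no call. ENST00000527521 had 7.47 FPKM in SETD2 KO and 8.97 FPKM in WT, and ENST00000280258 had 0.490 FPKM in SETD2 KO and 0.865 FPKM in WT. ENST00000605633 had 3.56 FPKM in SETD2 KO and 3.33 FPKM in WT. ENST00000533902 had 1.46 FPKM in SETD2 KO and 0.163 FPKM in WT, and ENST00000533880 had 1.17 FPKM in SETD2 KO and 0.0902 FPKM in WT.

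FZD3 and FZD6, which in the mouse act in axon guidance and in the patterning of hair, had the lowest anchors in SETD2 KO. The FZD3 locus, on chromosome 8 from 28351729 to 28431775 (hg19), spans 80047 bases, the same length as the RefSeq gene. Its anchor ENST00000240093 had 0.446 FPKM in SETD2 KO and 0.539 FPKM in WT. A transcript of the same locus, ENST00000537916, was higher than the anchor, at 2.82 FPKM in SETD2 KO and 2.61 FPKM in WT. Summed over its 6 transcripts the FZD3 locus stood at 4.28 FPKM in SETD2 KO and 3.85 FPKM in WT.

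The FZD6 anchor ENST00000358755 was close to 0 in SETD2 KO, at 0.00062 FPKM, and stood at 1.65 FPKM in WT. It did not pass (p = 0.239 in the authors' deposited table), and its intervals of 0 to 0.0246 FPKM in SETD2 KO and 0 to 3.83 FPKM in WT overlapped. ENST00000306391 of the same locus ran the other way, at 2.12 FPKM in SETD2 KO and 0.0400 FPKM in WT, and did not pass either (p = 0.415 in the authors' deposited table). The locus, on chromosome 8 from 104133260 to 104345094 (hg19), holds 31 transcripts over 211835 bases, against 34373 bases of the RefSeq gene. Its sum was 11.0 FPKM in SETD2 KO and 8.86 FPKM in WT in the test table, and 8.61 FPKM in SETD2 KO and 8.64 FPKM in WT in the tracking table. The other named rows of the FZD6 locus lay between 0.660 and 2.36 FPKM in SETD2 KO and between 0 and 2.18 FPKM in WT, and none passed.

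**Figure D3:**
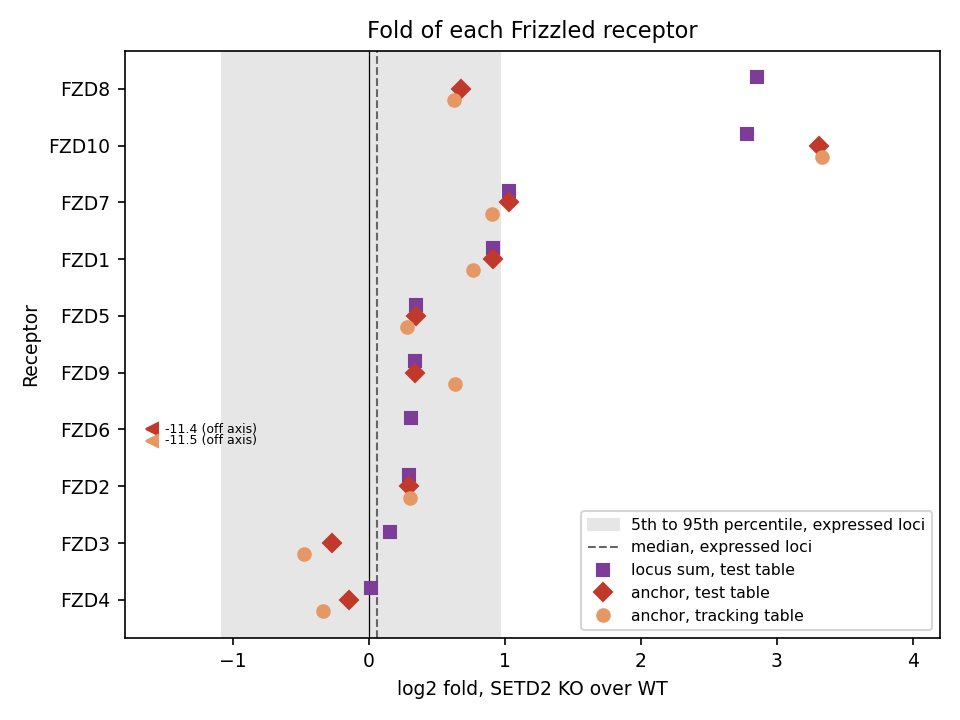
Log2 fold of SETD2 KO over WT (horizontal axis) for each receptor, as the locus sum, the anchor in the test table and the anchor in the tracking table. The grey band holds the 5th to 95th percentile of the sums of 12467 expressed loci (-1.08 to 0.96), and is not a background for the anchors. Single transcripts spread more. Of those tested that reached 1 FPKM in a group and were above 0 in both, 29.3% were at least 1.5-fold higher, against 13.1% of the loci. The FZD6 anchor lies off the axis at -11.4 and -11.5, and the FZD8 sum (2.86) stands apart from its anchor (0.68).

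Across the family, 7 of the 10 anchors were higher in SETD2 KO and 3 were lower, beside 55.4% higher among 56292 tested transcripts that reached 1 FPKM in either group with a nonzero value in each. A difference of at least 1.5-fold upward was seen for 4 anchors, FZD10, FZD7, FZD1 and FZD8, and downward for 1, FZD6. Among those 56292 transcripts, 29.3% were at least 1.5-fold higher and 21.7% at least 1.5-fold lower. The median log2 fold was 0.34 over the 10 anchors and 0.11 over the 56292 transcripts. The FZD10 anchor had a larger log2 fold (3.31) than 97.0% of them, FZD7 (1.03) than 81.8% and FZD1 (0.91) than 79.5%.

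By locus sums, 4 of the 10 loci were at least 1.5-fold higher and 0 at least 1.5-fold lower, beside 13.1% and 11.1% of the 12467 expressed loci. All 10 sums were higher in SETD2 KO in the test table, against 56.1% of expressed loci, but those of FZD4 (-0.05) and FZD6 (-0.0059) turned lower in the tracking table, and FZD4 (-0.05) also when the median of all expressed loci was set to 0. The sums of FZD3, FZD4, FZD6 and FZD8 hold other rows, as given above. For FZD1, FZD2, FZD5, FZD7 and FZD9 the sum and the anchor are the same single transcript.

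**Figure D4:**
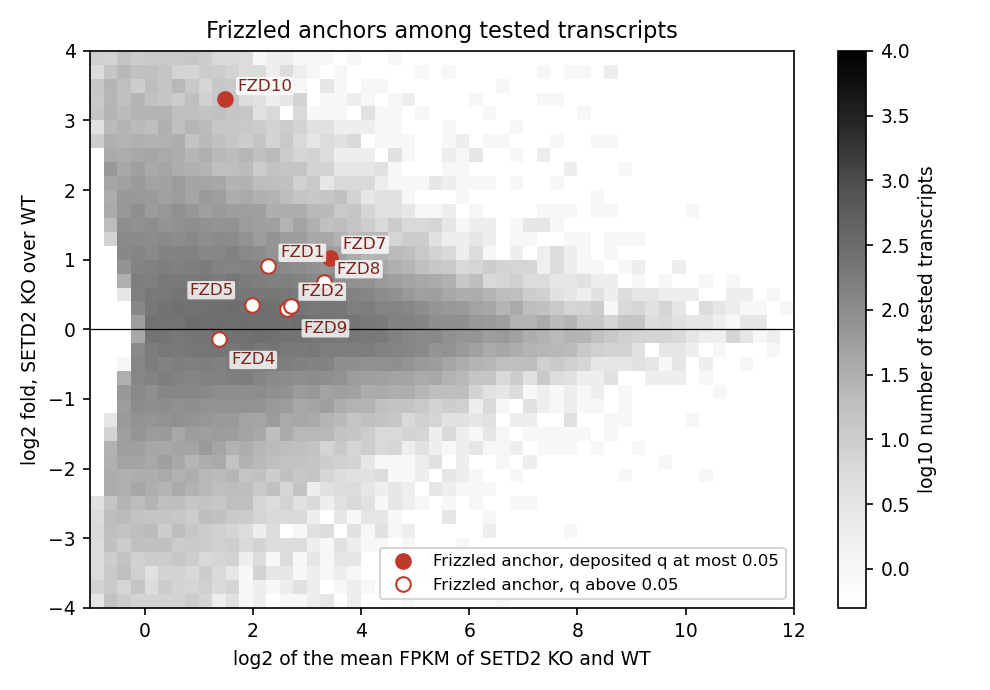
Log2 fold of SETD2 KO over WT (vertical axis) against the log2 mean FPKM of both groups (horizontal axis), with tested transcripts of at least 1 FPKM as grey bins and 8 Frizzled anchors as circles, filled where q was at most 0.05. FZD10 (3.31) lies far above the other anchors at a low mean level; FZD3 and FZD6 and 2143 transcripts outside the axes are not drawn.

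By anchors, sums and shares within the family are given for each group, and they carry no interval. Summed over the 10 anchors, the level was 59.7 FPKM in SETD2 KO and 38.4 FPKM in WT, a 1.55-fold difference. Without FZD10 the sums were 54.6 FPKM in SETD2 KO and 37.9 FPKM in WT, so most of the difference lay in other anchors. FZD7, FZD8, FZD1 and FZD10, which were grouped after their values were seen, summed to 38.2 FPKM in SETD2 KO and 18.7 FPKM in WT. The remaining 6 anchors summed to 21.5 FPKM in SETD2 KO and 19.7 FPKM in WT.

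As a share of the anchor sum, FZD10 took 8.55% in SETD2 KO and 1.34% in WT, while FZD7 took 24.3% in SETD2 KO and 18.5% in WT. FZD8 took nearly the same share, 20.6% in SETD2 KO and 20.0% in WT. FZD9 took 12.2% in SETD2 KO and 15.0% in WT, and FZD2 took 11.5% in SETD2 KO and 14.6% in WT. These are shares of a sum, so a smaller share of FZD9 or FZD2 goes with a higher level. The FZD6 anchor took 0.00103% in SETD2 KO and 4.30% in WT. Its locus sum was nevertheless higher in SETD2 KO in the test table, so this share does not describe the receptor.

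In SETD2 KO the order of the anchors from high to low was FZD7, FZD8, FZD9, FZD2, FZD1, FZD10, FZD5, FZD4, FZD3 and FZD6. The intervals of neighbours in that order overlapped down to FZD4, and lay apart between FZD4 and FZD3 and between FZD3 and FZD6. In WT the order was FZD8, FZD7, FZD9, FZD2, FZD5, FZD1, FZD4, FZD6, FZD3 and FZD10, and the intervals of every neighbouring pair overlapped. FZD9 and FZD2 held the third and the fourth place in both groups. The order ranks a single transcript per receptor, which need not stand for the gene. The FZD3 anchor held 10.4% of its locus sum in SETD2 KO and 14.0% in WT. The FZD3 sum in WT, 3.85 FPKM, was above the FZD1 (3.36 FPKM) and FZD5 (3.47 FPKM) anchors. The FZD6 anchor held 0.0056% of its locus sum in SETD2 KO and 18.6% in WT, but that sum can hold transcripts of other genes.

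The members also differ in the size of their loci. FZD10, FZD1, FZD2, FZD5, FZD7, FZD8 and FZD9 lie in loci of 1983 to 6978 bases with 1 or 2 transcripts. The anchors of all 7 were higher in SETD2 KO, while the 3 anchors in loci over 10000 bases, those of FZD3, FZD4 and FZD6, were lower. This bound was set after the values were seen, and the directions come from the same contrast that chose the family. By locus sums there was no such split in the test table, since the log2 folds of FZD3 (0.15), FZD4 (0.01) and FZD6 (0.31) were also above 0. Among expressed loci of at most 10000 bases, 50.9% were higher in SETD2 KO by their sums, against 57.8% of longer ones. These shares are of sums and are not a background for the anchors.

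The median log2 folds around the receptors rest on 3 to 32 loci each and are given without a spread. High medians were not particular to FZD7. Within 1 Mb of FZD7, 19 other loci reached 1 FPKM with a median log2 fold of 0.38, and 6 were at least 1.5-fold higher and 0 as much lower, beside 13.1% and 11.1% of all expressed loci. Around FZD5 the median was 0.36 over 8 loci, with 1 at least 1.5-fold higher and 1 as much lower. Around FZD3 it was 0.35 over 10 loci, with 3 higher and 0 lower by that measure, and around FZD6 it was 0.19 over 6 loci, with 2 higher and 0 lower. Around FZD1 the median was 0.13 over 6 loci, with 1 at least 1.5-fold higher and 2 as much lower. Around FZD8 it was -0.0036 over 6 loci, with 1 at least 1.5-fold higher and 0 as much lower. Around FZD2, the largest set, it was 0.01 over 32 loci, with 3 at least 1.5-fold higher and 4 as much lower. Around FZD9 it was 0.07 over 17 loci, with 2 higher and 1 lower by that measure. The median was -0.03 over 5 loci around FZD4 and 0.26 over 3 loci around FZD10. By that measure 0 were higher and 0 lower around FZD4, and 1 was higher and 0 lower around FZD10. The median over all expressed loci was 0.06. No transcript within 1 Mb of FZD7 or FZD1, other than the FZD7 anchor, passed the authors' test.

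The stretch before the start site is shown for FZD1 and FZD8, because they are the members at least 1.5-fold higher in SETD2 KO that had an entry among RefSeq's promoters of GRCh38.p14. In all 5 of the 10 members had one: FZD1, FZD4, FZD5, FZD8 and FZD9. Each line gives the 250 bases before the start, 5′ to 3′ on the strand of the gene, with FZD1 at chr7:91264183-91264432 (+ strand) and FZD8 at chr10:35642297-35642546 (- strand). Capitals mark matches on either strand to CTTTGA and CTTTGT, cores bound by TCF/LEF factors, to the CCAAT box, to the GC box GGGCGG, and to the TATA box TATAAA.
FZD1: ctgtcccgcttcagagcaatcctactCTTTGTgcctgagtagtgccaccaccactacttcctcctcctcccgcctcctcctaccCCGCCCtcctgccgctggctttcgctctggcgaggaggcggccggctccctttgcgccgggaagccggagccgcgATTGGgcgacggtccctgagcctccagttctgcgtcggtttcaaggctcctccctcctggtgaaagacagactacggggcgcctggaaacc
FZD8: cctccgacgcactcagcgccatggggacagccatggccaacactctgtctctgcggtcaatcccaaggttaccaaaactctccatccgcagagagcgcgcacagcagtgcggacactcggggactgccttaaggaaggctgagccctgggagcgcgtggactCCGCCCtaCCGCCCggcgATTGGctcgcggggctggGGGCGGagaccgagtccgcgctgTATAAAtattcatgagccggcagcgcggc
The CCAAT box was found in 4 of the 5 windows, FZD9 being the exception, and in 32.0% of 35116 promoter windows of the same length. All 5 held the GC box, against 42.6% of all windows. TATAAA was found in FZD8 alone of the 5, with its last base 24 bases before the start, against 10.7% of all windows. CTTTGT was found in FZD1 alone, against 13.7% of all windows, and CTTTGA in 0 of the 5, against 11.2%. CTTTGA and CTTTGT share their first bases and cannot match at the same place on the same strand. The GC content was 65.2% in both FZD1 and FZD8, 72.4% in FZD9, 76.8% in FZD5 and 80.8% in FZD4, against a median of 58% over all windows. The windows held 19 CpG sites in FZD1, 24 in FZD8, 23 in FZD9, 30 in FZD5 and 33 in FZD4, against a median of 11. A match is a description of the letters and no evidence of binding.

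The passed transcripts at other loci that were most like the FZD10 anchor were sought by distance between log2(FPKM + 1) values over the 2 group values. The nearest was ENST00000605542, the single transcript at 28601158 to 28601371 on chromosome 6 (hg19), with 4.95 FPKM in SETD2 KO and 0 in WT. Next came ENST00000254958 at 10618332 to 10975572 on chromosome 20, with 3.04 FPKM in SETD2 KO and 0.708 FPKM in WT, and intervals that lay apart. The third was ENST00000259526 at 120428546 to 120474590 on chromosome 8, with 2.89 FPKM in SETD2 KO and 0.854 FPKM in WT. Its intervals of 1.21 to 3.56 FPKM in SETD2 KO and 0.329 to 1.34 FPKM in WT overlapped. All 3 had q = 0.0220 in the authors' deposited table. The distance weighs levels, not ratios: ENST00000254958 was 4.29-fold and ENST00000259526 3.38-fold higher in SETD2 KO, against 9.91-fold for the FZD10 anchor.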

How the data were processed

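Bowtie 1.1.2, TopHat, Cuffdiff and the build hg19 are listed, with no roles, per the submitters' processing notes. No annotation is named in the labels or headers. The authors deposited FPKM values as 1 value per transcript and group, with bounds in the tracking table. The authors' test table adds, per the file headers, the log2 fold of WT over knockout, a score used as the test statistic, and for each transcript its p-value and its q-value. This log2 fold was multiplied by -1 to run as SETD2 KO over WT; over tested transcripts that reached 0.01 FPKM in each group it differed from the fold of the values by at most 5.38e-05. The tables named for genes and for transcripts were identical. The series holds 2 groups of 3 RNA libraries each, which nothing in the labels describes as separate cultures. Which libraries entered the test is not stated, so the spread that the deposited p-values measure is unknown. Any variation between libraries that they reflect could be purely technical. The label of 1 WT RNA library carries a ChIP protocol.

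FPKM were summed per locus after the 50 transcripts with a failed estimate, and their loci, were left out. Loci counted as expressed reached 1 FPKM in either group with nonzero sums in each. No test was run here: calls are transcripts with a deposited q-value of at most 0.05, and ratios carry no pseudocount. Named rows were the anchors, the other transcripts of their loci that reached 0.5 FPKM in either group, and the 3 passed transcripts most like FZD10. The members and lists were chosen with earlier results of these data known. A list of other Wnt pathway genes and of cell markers could not be used, since 0 of 204092 IDs matched the tables of gene names. The files count starts from 0, so 1 was added. The sums and folds were run on simulated loci without noise, where the known folds must come back, which checks the arithmetic alone. Alternatives were the tracking table, the anchor alone, other pseudocounts, minimum levels and thresholds, and a median of 0. Computations used Python 3.11.15, pandas 2.3.3 and numpy 2.4.6, and figures matplotlib 3.10.9.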

Additional observations from a re-analysis of the deposited data

Results flagged for a closer look

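A row of the FZD3 locus, ENST00000365541, carried signal in the tracking table alone. It was listed at 0 in both groups of the test table and was not tested there. In the tracking table it stood at 59.0 FPKM in SETD2 KO, with an interval of 48.7 to 69.4 FPKM, and at 0 in WT. With it the FZD3 locus sum of the tracking table was 62.6 FPKM in SETD2 KO and 3.76 FPKM in WT, against 4.28 FPKM in SETD2 KO and 3.85 FPKM in WT in the test table. The test table held 76911 transcripts at 0 in both groups. Of these, 1811 were above 0 in SETD2 KO and at 0 in WT in the tracking table. Among the 1811, 14 were at least as high as this row, itself included. The reverse, above 0 in WT and at 0 in SETD2 KO, held for 102 of the 76911.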

How the results depend on the processing

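Of 122 values recomputed under 14 other settings, 111 were labelled unchanged and 0 reversed a called value. For a fold this meant a shift no wider than the authors' interval of the anchor in SETD2 KO, mirrored where its lower bound was 0. For counts, sums and shares it meant within 1.5-fold. Many values had no room to move. With no minimum, a minimum of 5 FPKM or failed estimates kept, every value given equalled the main one. For receptors with a single transcript the anchor alone is the locus sum. The 111 is therefore no measure of robustness. FZD10 and FZD7 stayed higher in SETD2 KO under every setting that gave a fold. The FZD10 log2 fold ran from 1.99 with a pseudocount of 1 FPKM to 3.33 for the anchor in the tracking table, against 2.78 for the locus sum. The share of FZD10 in the summed knockout FPKM was 4.73% over locus sums, 3.70% over locus sums in the tracking table, 8.55% over anchors, and 8.83% over anchors in the tracking table, a setting chosen after seeing the data. The FZD8 row at 43.3 FPKM in the test table enters the locus sums only. Receptors at least 1.5-fold lower numbered 0 by locus sums and 1, FZD6, by anchors in the test table and also 1 in the tracking table. Receptors higher numbered 4 at 1.5-fold, 8 at 1.2-fold and 3 at 2-fold by locus sums, and at 1.5-fold 6 by locus sums and 5 by anchors in the tracking table. Passed transcripts numbered 2 at a q of 0.05 and 5 at an unadjusted p of 0.05. Single receptors that moved were FZD3, to 4.06 by its sum in the tracking table, FZD6, to -11.4 by its anchor, and FZD8, to 0.68 by its anchor. FZD3 had no value by its anchor, which lies under 1 FPKM. No paired analysis was possible because the files hold group values only, and leaving out a library or a fit with a block was not run for the same reason. Depth is unknown, so low values such as those of the FZD3 and FZD6 anchors carry only the authors' intervals.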

Other observations

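Passed transcripts near FZD5 and FZD8 were lower in SETD2 KO in the test table, as were 165 of all 219 passed transcripts. They were named after their values were seen. Within 1 Mb of FZD5, ENST00000264376 at 208986331 to 208989225 on chromosome 2 (hg19) stood at 3.75 FPKM in SETD2 KO and 13.8 FPKM in WT, and ENST00000440809 at 208972957 to 208977235 stood at 0 in SETD2 KO and 2.80 FPKM in WT. Within 1 Mb of FZD8, ENST00000446211 at 35104695 to 35105314 on chromosome 10 was listed at 0 in SETD2 KO and at 1.28 FPKM in WT, but at 1.74 FPKM in SETD2 KO and 1.25 FPKM in WT in the tracking table. All 3 had q = 0.0220 in the authors' deposited table. No transcript passed within 1 Mb of the other 8 Frizzled points, apart from the FZD10 and FZD7 anchors.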
